A study of Rattus norvegicus with 30 samples.

Results

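Transcripts whose level in rat heart was low at both 1 h and 3 h once isoproterenol had been given are described here, with their recovery at 24 and 72 h. Isoproterenol is a drug that acts like adrenaline on beta receptors. Members were probe sets, the groups of oligonucleotides that read 1 transcript on the array, chosen by their measured values: a vehicle mean of 6 or more at 1 h and at 3 h on the log2(intensity + 16) scale, and an isoproterenol mean minus vehicle mean of -0.8 or lower at both times. Of 31042 probe sets, 13159 were bright enough in vehicle hearts and 69 met the rule. The apelin receptor gene Aplnr and the repressor gene Klf15, with 1 such probe set each, were left out by design, and none of 5 Klf2 probe sets met the rule, which left 67 members. A platform annotation table gave a single gene for 55 members, 49 genes in all, several genes for 1 member and none for 11.

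Each array was hybridised with RNA from cardiac tissue of a male Wistar Han rat, strain Crl:WI(Han). The sources used here do not give the age. Isoproterenol groups held 5 arrays at 1 h, 4 at 3 h, 4 at 24 h and 5 at 72 h, and vehicle groups 3 at each time. Labels state 0.5 mg/kg/ml where the design text states 0.5 mg, which leaves the amount per animal unsettled, and the design text names 48 h where the labels name 72 h, which is followed here. Arrays are titled biological replicates, but nothing says that animals were not shared between arrays, so p-values may reflect only technical spread among the samples.

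The heart responds to beta-adrenergic stimulation through cyclic AMP and protein kinase A, which alter contraction within seconds and gene transcription within the following hours. Messenger RNA that is no longer made disappears at the pace of its own decay, which differs between messages. High doses of isoproterenol also injure heart muscle cells, after which inflammatory cells enter and fibroblasts deposit matrix over the following days.

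Heart muscle transcripts were among the brightest: the median levels of Myh6, Tnnt2, Tnni3, Myl2 and Ryr2 lay at or above the 99.7th percentile of all probe sets. The skeletal muscle marker Actn3, 1 of 6 measured, lay at the 28th percentile, with a highest reading of 5.86 (log2) on any array. So dim a marker makes up only a small part of the summed intensity of the 6. The levels of the other markers are not given singly, so Actn3 alone does not show how much skeletal muscle was present. The summed intensity of the 6 at 3 h was 1567 to 2716 in isoproterenol hearts and 2072 to 3990 in vehicle hearts. At 72 h it was 1950 to 2884 and 3884 to 4500. The part of skeletal muscle in any result was not tested. Deposited array medians ranged from 21.2 to 70.4 in intensity. In isoproterenol and vehicle hearts they were 26.4 to 45.15 and 34 to 45.4 at 1 h, and 21.2 to 32 and 26.8 to 40.7 at 3 h. The medians were 35.2 to 70.4 and 29.7 to 49.3 at 24 h, and 22.5 to 55.6 and 23.5 to 41.8 at 72 h. Their part in any result was not tested. After normalization, the mean correlation of an array with the others of its group ranged from 0.947 to 0.979. Isoproterenol arrays carry numbers 33 to 62 and vehicle arrays 4 to 21, so in every comparison the treatment and the order of the arrays cannot be told apart. The difference between actin control probe sets at the 3' and 5' ends, a sign of RNA quality, averaged 0.87 ± 0.37 in isoproterenol hearts at 24 h, against 1.64 ± 0.24 in vehicle hearts (log2, SD, n = 4 and 3). At 3 h it averaged 1.93 ± 0.15 in isoproterenol hearts and 1.36 ± 0.74 in vehicle hearts (n = 4 and 3), and its part in any result was not tested.

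At 1 h the median difference of the 67 members was -1.0, and at 3 h it was -1.23, against -0.03 and -0.05 over all 24292 probe sets tested. These values chose the members and are given without a test. The difference was larger in size at 3 h for 49 members and at 1 h for 18. All isoproterenol arrays lay below all vehicle arrays in 59 members at 1 h, where 7.68% of all probe sets did, and in 60 members at 3 h, where 9.0% did. In 17 members the isoproterenol mean at 1 or 3 h was as dim as probe sets that the filter leaves out (below 5.29). In bulk tissue, fewer cells of a type and less RNA per cell cannot be told apart.

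**Figure D1:**
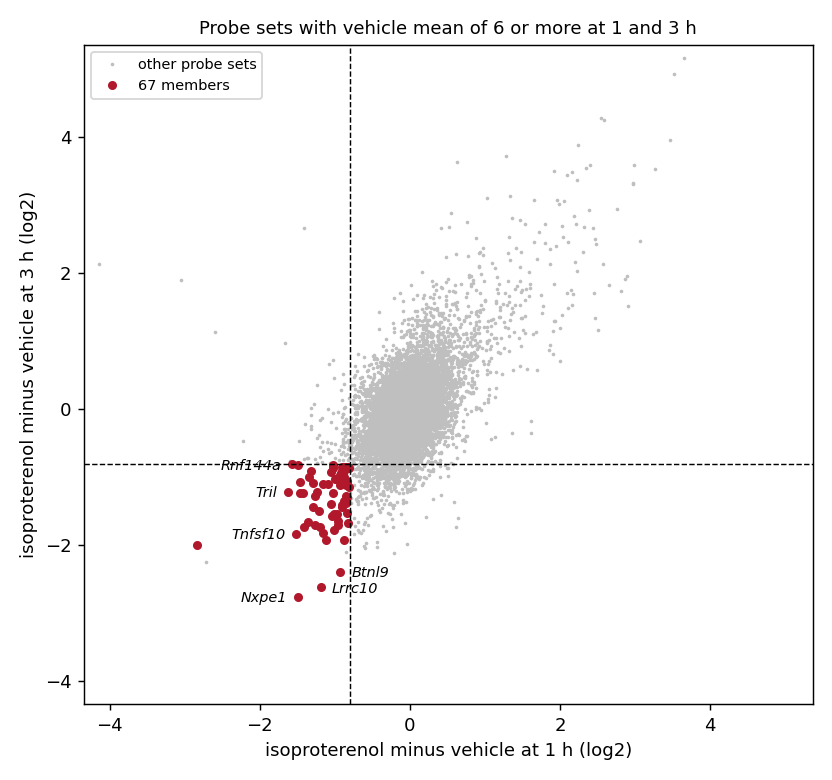
Difference between isoproterenol and vehicle means at 1 h (x axis) and 3 h (y axis), in log2 units, for the 13159 probe sets bright enough in vehicle hearts. Dashed lines mark -0.8; red points are the 67 members, with Nxpe1 and Lrrc10 lowest at 3 h, and grey points are all others, the 2 excluded genes included.

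Membership near the threshold depended on single arrays. Leaving out each of the 15 arrays of 1 and 3 h in turn kept between 55 and 66 of the 67 members, and 29 were kept every time. Just inside the rule stood Rnf144a (a difference of -0.81 at 3 h), Rasl11b (-0.82 at 3 h), Tcf4 (-0.82 at 1 h) and Slfn5 (-0.82 at 1 h). Just outside stood Cav1, the main coat protein of caveolae (-0.80 at 1 h, -1.49 at 3 h), the ubiquitin ligase gene Nedd4 (-0.80 and -1.05), Eva1b (-0.80 and -1.14) and Hyls1 (-0.79 and -1.24).

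At 24 h 12 of the 67 members were lower than in vehicle hearts and the other 55 did not pass the test. The median difference was -0.35, with quartiles of -0.62 and -0.18, against -0.02 over all probe sets. It was below 0 in 54 members, where 55.9% of the bright probe sets were. By limma's moderated test, adjusted by the Benjamini-Hochberg method over all probe sets at a threshold of 0.05, 12 members were lower and 0 were higher, where 5.70% of all probe sets were lower and 7.33% higher. At an unadjusted p under 0.05, 20 were lower and 0 higher, where 12.5% and 12.9% of all probe sets were. A difference of -0.8 or lower persisted in 11 members, where 4.29% of bright probe sets had one. All isoproterenol arrays lay below all vehicle arrays in 17 members and above them in 0, where 11.2% and 10.6% of all probe sets did.

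The lower members at 24 h were the genes Snx33, Btnl9, Gucy1a1, Pcdh17, Rasl12, Zfp715, Zfp46, Pik3ip1, Gimap4 and Rnf144a, and 2 unnamed probe sets. Scaling set how many were called: with arrays centred on their medians 7 members were lower, and without normalization 0 were. Without normalization the members' median was 0.26 at 24 h, still below the median of all probe sets, 0.47. Without isoproterenol replicate 2 of 24 h, 6 members were lower.

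At 72 h the members' counts in each direction were near those of all probe sets. Their median difference was -0.12, against -0.04 over all probe sets, with 39 members below 0 and 28 above, where 57.7% of the bright probe sets were below. By limma 7 members were lower and 7 higher, where 8.56% of all probe sets were lower and 9.37% higher. The lower genes were Btnl9, Pik3ip1, Cav2, Gimap4 and Mid1ip1, with 2 unnamed probe sets, and the higher genes were RT1-Ba, RT1-T24-3, Igf1, Adamts5, Cxcr4 and Lurap1l, with 1 unnamed probe set. All isoproterenol arrays lay below all vehicle arrays in 6 members and above them in 8, where 8.19% and 8.62% of all probe sets did. A difference of -0.8 or lower persisted in 3 members, where 5.69% of bright probe sets had one. Of the 67, 4 were lower at both 24 and 72 h (Btnl9, Pik3ip1, Gimap4 and 1 unnamed), where 2.31% of all probe sets were, and 45 were called at neither time, as were 74.8% of all probe sets. The median at 72 h changed sign with arrays centred on their medians (0.03) and without normalization (0.38, where the median of all probe sets was 0.36).

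The count of lower members at 72 h rested on single libraries. It was 1 without vehicle replicate 1, 3 without vehicle replicate 3 and 3 without isoproterenol replicate 3 of that time. It was 1 with arrays centred on their medians and 0 without normalization, while the count of higher members was 5 to 9 when each array was left out.

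**Figure D2:**
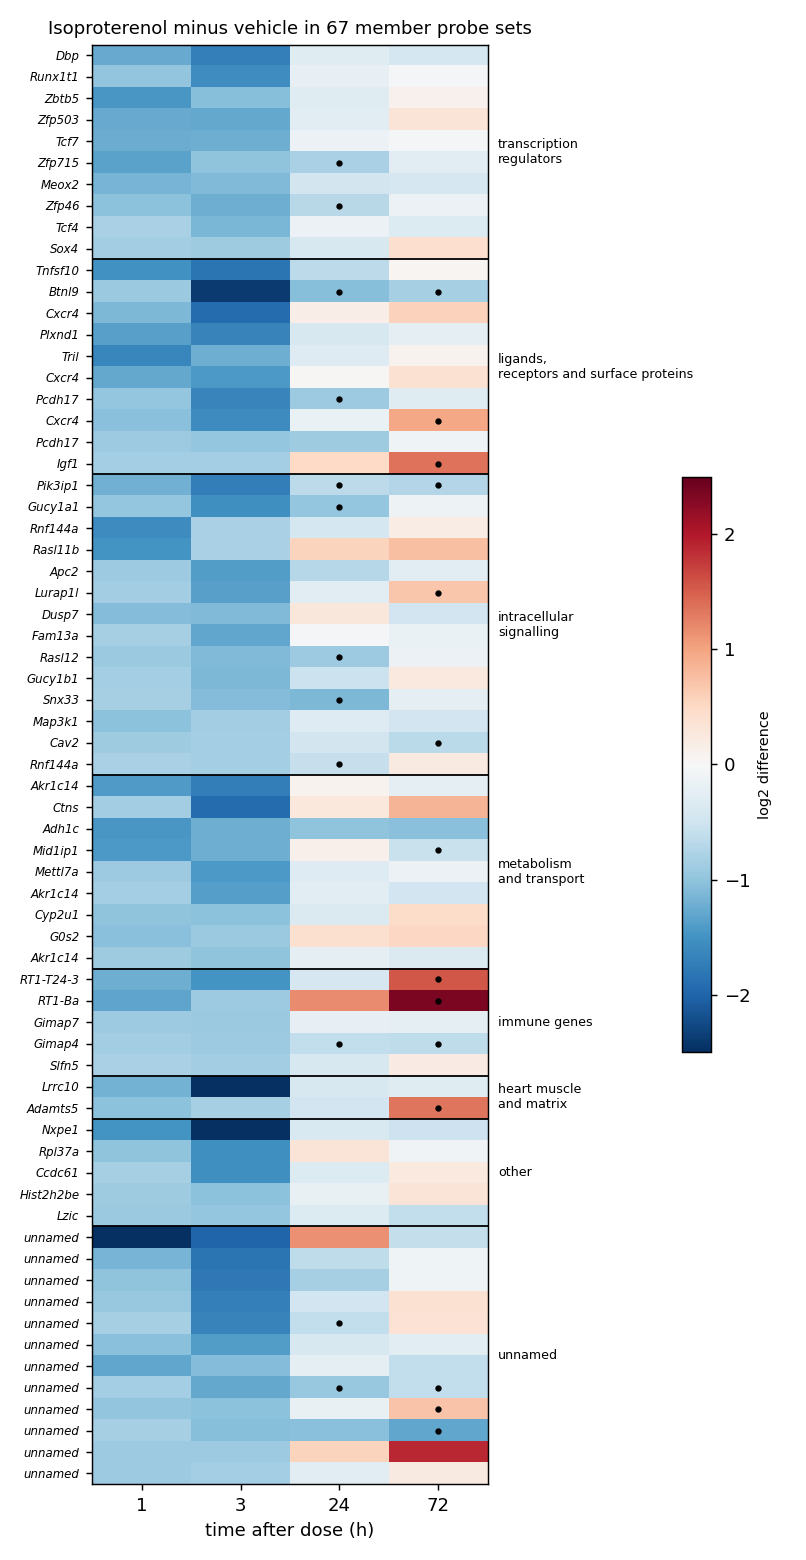
Isoproterenol minus vehicle difference (log2, colour) of the 67 members at 1, 3, 24 and 72 h, in rows grouped by role. Dots mark members called by limma at 24 or 72 h; the 2 left columns, which chose the members, are blue throughout, and the strongest red at 72 h is RT1-Ba.

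The change of the effect between 24 and 72 h was tested as an interaction. Its median over members was 0.41, and it was above 0 in 47 of 67 members, where 47.7% of bright probe sets were above 0. By limma 3 members had a higher effect at 72 h than at 24 h and 0 a lower one, where 1.32% and 0.795% of all probe sets did, and 18 had an unadjusted p under 0.05, as did 14.0% of all probe sets. The 3 were RT1-T24-3, Adamts5 and 1 unnamed probe set. The count ranged from 0 to 6 when each array was left out: it was 0 without vehicle replicate 1 of 72 h, 6 without vehicle replicate 2 or isoproterenol replicate 1 of 72 h, and 1 without vehicle replicates 1 or 2 or isoproterenol replicate 2 of 24 h, or vehicle replicate 3 or isoproterenol replicate 5 of 72 h. Between vehicle hearts of 72 and 24 h, limma called 0 members, where 0.00823% of all probe sets were lower and 0.0535% higher. At an unadjusted p under 0.05 there were 10 members, and 9.55% of all probe sets.

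Among the heart muscle genes, Lrrc10 had one of the largest early differences. It encodes a leucine-rich repeat protein found almost only in heart muscle cells, and its loss causes dilated cardiomyopathy in mice. The 250 bases before its annotated start (RefSeq, GRCr8, chr7:54572685-54572934, plus strand) are shown because the other cardiomyocyte markers, such as Myh6 and Tnnt2, stayed near vehicle level at 3 h (0.03 and 0.06). Capitals mark TATAAA, 30 bases before the start, and GATAAG, the core motif of GATA factors, 171 bases before it.
Lrrc10: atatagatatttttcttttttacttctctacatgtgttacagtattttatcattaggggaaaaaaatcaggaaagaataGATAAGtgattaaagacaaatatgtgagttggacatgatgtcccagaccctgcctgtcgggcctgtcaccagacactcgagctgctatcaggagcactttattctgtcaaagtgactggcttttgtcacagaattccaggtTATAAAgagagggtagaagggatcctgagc

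Lrrc10 read 10.72, 10.26, 10.27, 10.63 and 9.88 in isoproterenol hearts at 1 h, against 11.56, 11.63 and 11.42 in vehicle hearts. By 3 h the readings were 9.48, 9.17, 8.70 and 9.21 in isoproterenol hearts, against 12.01, 11.76 and 11.52 in vehicle hearts. The groups did not overlap at either time, and the differences were -1.18 and -2.62, the last a ratio of 0.162 in intensity + 16. At 24 h it read 11.03, 10.98, 11.67 and 11.02 in isoproterenol hearts, against 11.59, 11.38 and 11.76 in vehicle hearts. One isoproterenol heart was thus within the vehicle range and the other 3 just below it (difference -0.40 ± 0.19, SE, limma adjusted p = 0.170). At 72 h the difference was -0.30 ± 0.18 (adjusted p = 0.277), with a 95% interval of -0.67 to 0.07. Of 14 cardiomyocyte markers, 1 was lower and 0 higher at 1 h and again at 3 h, and that 1 was Lrrc10, chosen on those values. Their summed intensity, Lrrc10 included, was 90008 to 96056 in isoproterenol hearts and 95735 to 98154 in vehicle hearts at 3 h. The fall of Lrrc10 is itself part of that sum, so the sum is no separate measure of heart muscle cells. The part of cell number in the level of Lrrc10 was not tested.

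Among the signalling genes stood both subunits of the nitric oxide receptor. Gucy1a1 and Gucy1b1 encode the alpha and beta chains of soluble guanylate cyclase, which makes cyclic GMP when nitric oxide binds it and so relaxes vascular smooth muscle. The genes are neighbours on rat chromosome 2, with 0 annotated protein-coding genes between them, and both lie on the minus strand. The 250 bases before each start (RefSeq, GRCr8, chr2:169779624-169779873 and chr2:169696988-169697237) are shown side by side because both messages were low at the same times. Capitals mark CCAAT, here read on the opposite strand as ATTGG, and GGGCGG, the binding motif of Sp1. In the Gucy1a1 sequence the 2 motifs overlap.
Gucy1a1: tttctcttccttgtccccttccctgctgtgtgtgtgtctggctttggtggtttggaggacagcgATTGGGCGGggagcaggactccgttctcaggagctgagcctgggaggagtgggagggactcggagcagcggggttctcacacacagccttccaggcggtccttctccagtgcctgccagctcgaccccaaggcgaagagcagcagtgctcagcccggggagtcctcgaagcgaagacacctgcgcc
Gucy1b1: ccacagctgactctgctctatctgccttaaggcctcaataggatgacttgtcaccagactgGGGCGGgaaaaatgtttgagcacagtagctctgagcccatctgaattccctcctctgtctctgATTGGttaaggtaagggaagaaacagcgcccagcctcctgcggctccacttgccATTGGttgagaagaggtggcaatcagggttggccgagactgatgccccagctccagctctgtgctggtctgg

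Gucy1a1 read 7.44, 7.15, 7.71, 7.14 and 7.03 in isoproterenol hearts at 1 h, against 8.19, 8.55 and 8.06 in vehicle hearts. The 3 h readings were 6.92, 7.07, 7.16 and 6.16 in isoproterenol hearts, against 8.23, 8.51 and 8.37 in vehicle hearts. Every isoproterenol heart lay below every vehicle heart at both times (differences -0.97 and -1.54). At 24 h Gucy1a1 was still lower, with 7.96, 7.46, 8.09 and 7.77 in isoproterenol hearts, against 8.92, 8.99 and 8.43 in vehicle hearts. The difference of -0.96 ± 0.21 passed (SE, limma adjusted p = 0.00245), and the call held in each fit that left out 1 array. The 72 h readings were 8.5, 7.99, 8.10, 8.45 and 7.96 in isoproterenol hearts, against 8.28, 8.40 and 8.31 in vehicle hearts. The groups overlapped there, with a difference of -0.13 ± 0.20 (adjusted p = 0.725, 95% interval -0.54 to 0.28).

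Gucy1b1 had the same order of values. Its differences were -0.85 at 1 h and -1.12 at 3 h, with no overlap between groups. At 24 h the difference was -0.54 ± 0.22 (limma adjusted p = 0.106) and at 72 h 0.25 ± 0.21 (0.466). A separate Gucy1b1 probe set that is no member was lower at 24 h (-0.90, adjusted p = 0.0202), and a separate Gucy1a1 probe set, dim in vehicle hearts, did not pass (-0.26, adjusted p = 0.599). Of 10 mural cell markers, which include smooth muscle genes, 0 were lower at 1 h, 3 at 3 h and 1 at 24 h. Their summed intensity at 3 h was 2672 to 3510 in isoproterenol hearts and 3661 to 4246 in vehicle hearts, and at 24 h 3376 to 4074 and 3857 to 4216. Its part in the cyclase levels was not tested.

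Pik3ip1, an inhibitor of phosphatidylinositol 3-kinase, was low at all 4 times. It read 7.19, 6.84, 6.95, 7.16 and 7.11 in isoproterenol hearts at 1 h, against 7.98, 8.45 and 8.33 in vehicle hearts. At 3 h it read 7.18, 7.24, 7.07 and 7.01 in isoproterenol hearts, against 8.91, 8.53 and 9.10 in vehicle hearts. The isoproterenol hearts of both times were close together and well below vehicle (-1.20 and -1.73). The difference was -0.65 ± 0.21 at 24 h (limma adjusted p = 0.0398) and -0.73 ± 0.20 at 72 h (adjusted p = 0.0117). At 24 h the call was lost without isoproterenol replicates 1, 2 or 4 or vehicle replicates 1 or 3 of that time (adjusted p 0.0887 to 0.192), and at 72 h without vehicle replicates 1 or 3 (0.0876 and 0.0898).

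Snx33, a sorting nexin of endocytosis, had about the same difference at 24 h as at 3 h. It read 7.03, 6.72, 7.86 and 7.29 in isoproterenol hearts at 24 h, against 8.30, 8.39 and 8.34 in vehicle hearts. The groups did not overlap (-1.12 ± 0.23, limma adjusted p = 0.00172), after differences of -0.83 at 1 h and -1.09 at 3 h, and at 72 h the difference was -0.24 ± 0.22 (adjusted p = 0.526). Rasl12, a Ras-like small GTPase, had differences of -0.93 at 1 h and -1.11 at 3 h, then -0.91 ± 0.24 at 24 h (adjusted p = 0.0115) and -0.15 ± 0.23 at 72 h (adjusted p = 0.723). The 24 h calls of Snx33 and Rasl12 held in each fit that left out 1 array.

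Rnf144a, a ubiquitin ligase, was lower at 24 h in 1 of its 2 member probe sets (-0.57 ± 0.18, limma adjusted p = 0.0316). The other did not pass (-0.44 ± 0.34, adjusted p = 0.470), and the call was lost without isoproterenol replicates 1 or 2 or vehicle replicates 1 or 2 of 24 h (0.0526 to 0.150). A separate Rnf144a probe set that is no member, dim in vehicle hearts, had a positive difference at 24 h and did not pass (0.51, limma adjusted p = 0.282). Cav2, a caveolin, was lower at 72 h (-0.68 ± 0.24, adjusted p = 0.0435), after -0.46 ± 0.25 at 24 h (adjusted p = 0.253). That call was lost without any of the 3 vehicle replicates or isoproterenol replicates 2, 3 or 4 of 72 h (0.0536 to 0.165). The difference between the times was not past the threshold (-0.22 ± 0.34, interaction adjusted p = 0.837), and 3 other Cav2 probe sets did not pass at 72 h (-1.0 to -0.41, adjusted p 0.0876 to 0.576). Lurap1l was higher at 72 h (0.70 ± 0.21, adjusted p = 0.0193), a call lost without vehicle replicates 2 or 3 or isoproterenol replicates 2 or 3 of 72 h (0.0531 to 0.116).

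The remaining signalling members were called at neither later time. They were the mitogen-activated kinase phosphatase gene Dusp7, the kinase gene Map3k1, Rasl11b, Fam13a and Apc2, a relative of the Wnt regulator Apc. Their differences at 24 h ranged from -0.71 in Apc2 to 0.56 in Rasl11b, and at 72 h from -0.48 in Dusp7 and Map3k1 to 0.74 in Rasl11b. Rasl11b read 7.60, 7.90, 8.19, 7.72 and 7.75 in isoproterenol hearts at 72 h, all above the 7.05, 7.23 and 6.97 of vehicle hearts (limma adjusted p = 0.0785).

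Among ligands, receptors and surface proteins, Btnl9 was called lower at both 24 and 72 h. It is a butyrophilin-like member of the immunoglobulin superfamily. It read 6.64, 6.47, 6.71, 6.07 and 6.68 in isoproterenol hearts at 1 h, against 7.86, 7.35 and 7.11 in vehicle hearts. By 3 h the readings were 4.42, 5.55, 4.94 and 5.62 in isoproterenol hearts, against 7.03, 7.99 and 7.56 in vehicle hearts, so the isoproterenol hearts were near the dim limit of the array. The difference was -0.93 at 1 h and -2.39 at 3 h.

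Btnl9 then read 6.12, 5.84, 7.14 and 6.10 in isoproterenol hearts at 24 h, against 7.29, 7.25 and 7.53 in vehicle hearts. At 72 h it read 7.14, 6.76, 6.13, 6.45 and 6.61 in isoproterenol hearts, against 7.37, 7.62 and 7.37 in vehicle hearts. Every isoproterenol heart lay below every vehicle heart at both times. The differences were -1.06 ± 0.29 at 24 h (limma adjusted p = 0.0130) and -0.83 ± 0.27 at 72 h (adjusted p = 0.0324). The first call was lost without isoproterenol replicate 2 (0.0694) or vehicle replicate 3 (0.0667) of 24 h, and the second without any of the 3 vehicle replicates or isoproterenol replicates 3, 4 or 5 of 72 h (0.0503 to 0.10).

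Pcdh17, a protocadherin that joins cells, was lower at 24 h in 1 of 2 member probe sets (-0.91 ± 0.31, limma adjusted p = 0.0487). The other had a difference of -0.88 ± 0.35 (adjusted p = 0.102). The call was lost without any of 17 arrays, among them all 3 vehicle replicates and isoproterenol replicates 1, 2 and 4 of 24 h (0.0504 to 0.194). At 72 h both were near vehicle (-0.30 ± 0.30 and -0.11 ± 0.34, adjusted p = 0.547 and 0.873). A separate bright Pcdh17 probe set that is no member had differences of -0.70 at 1 h and -1.39 at 3 h. It did not pass at 24 h (-0.61, limma adjusted p = 0.137) or 72 h (-0.35, adjusted p = 0.391).

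Endothelial markers were measured beside these surface genes. Of 21, 0 were lower and 2 higher at 1 h, 3 lower and 3 higher at 3 h, 2 lower and 2 higher at 24 h, and 3 lower and 0 higher at 72 h. Their summed intensity was 9758 to 11004 in isoproterenol hearts and 9133 to 9926 in vehicle hearts at 1 h, and 9289 to 10401 and 8981 to 9792 at 3 h. At 24 h it was 7787 to 8725 in isoproterenol hearts and 9224 to 10025 in vehicle hearts, and at 72 h 6468 to 10023 and 8375 to 10358. Its part in the levels of Btnl9 and Pcdh17 was not tested.

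Tnfsf10, the death ligand TRAIL, read 5.75, 6.42, 6.56, 6.12 and 6.37 in isoproterenol hearts at 1 h, against 7.78, 7.65 and 7.84 in vehicle hearts. The 3 h readings were 6.23, 5.27, 6.43 and 5.16 in isoproterenol hearts, against 7.67, 7.77 and 7.37 in vehicle hearts. The groups did not overlap at either time (-1.51 and -1.83). It did not pass at 24 h (-0.65 ± 0.31, limma adjusted p = 0.183) or 72 h (0.05 ± 0.30, adjusted p = 0.937).

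Plxnd1, a receptor for semaphorins in blood vessels, had differences of -1.36 at 1 h and -1.66 at 3 h, and Tril, a partner of Toll-like receptor 4, -1.63 and -1.21. Tril read 6.09, 6.36, 5.98, 6.01 and 6.33 in isoproterenol hearts at 1 h, against 7.80, 7.71 and 7.83 in vehicle hearts. At 24 h all isoproterenol hearts lay below all vehicle hearts for both genes, but neither passed (-0.40 ± 0.23 and -0.33 ± 0.20, limma adjusted p = 0.283 and 0.335). At 72 h the differences were -0.23 ± 0.22 for Plxnd1 and 0.09 ± 0.19 for Tril (adjusted p = 0.535 and 0.821).

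Cxcr4, the receptor of the chemokine Cxcl12, had 3 member probe sets. The probe set with the highest level at 72 h read 7.09, 7.02, 6.47, 6.94 and 6.85 in isoproterenol hearts at 1 h, against 8.0, 7.50 and 8.23 in vehicle hearts. At 3 h it read 6.57, 6.48, 7.23 and 6.47 in isoproterenol hearts, against 8.58, 8.39 and 7.79 in vehicle hearts. At 72 h the order was turned: it read 8.55, 8.24, 9.03, 8.67 and 8.69 in isoproterenol hearts, against 6.99, 8.21 and 7.79 in vehicle hearts. That rise passed (0.97 ± 0.26, limma adjusted p = 0.00852), but not without vehicle replicate 1 of 72 h (0.63, adjusted p = 0.144). The other 2 probe sets had differences of 0.57 ± 0.26 and 0.38 ± 0.27 at 72 h (adjusted p = 0.135 and 0.377), and the 3 had -0.16, 0.16 and 0.02 at 24 h.

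Igf1, insulin-like growth factor 1, also turned from low to high in its member probe set. It read 5.97, 6.24, 5.93, 6.32 and 6.66 in isoproterenol hearts at 1 h, against 7.26, 6.91 and 7.07 in vehicle hearts. By 3 h the readings were 5.73, 5.93, 6.09 and 6.01 in isoproterenol hearts, against 6.82, 7.08 and 6.45 in vehicle hearts. The 72 h readings were 6.98, 8.22, 8.59, 8.04 and 8.42 in isoproterenol hearts, against 6.59, 6.68 and 6.82 in vehicle hearts. All 5 isoproterenol hearts were then above all vehicle hearts, and the rise of 1.35 ± 0.27 passed (limma adjusted p = 0.000632), as it did in each fit that left out 1 array. At 24 h it did not pass (0.51 ± 0.28, adjusted p = 0.259). Both other Igf1 probe sets were higher at 72 h (1.86 and 1.18, limma adjusted p = 8.83e-06 and 0.000886). They were brighter in vehicle hearts at 1 h (means 9.27 and 8.17, against 7.08 for the member). Their 1 h differences, -0.46 and -0.11, were smaller in size than the -0.86 of the member. At 3 h their differences were -0.83 and -0.93, near the -0.85 of the member.

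**Figure D3:**
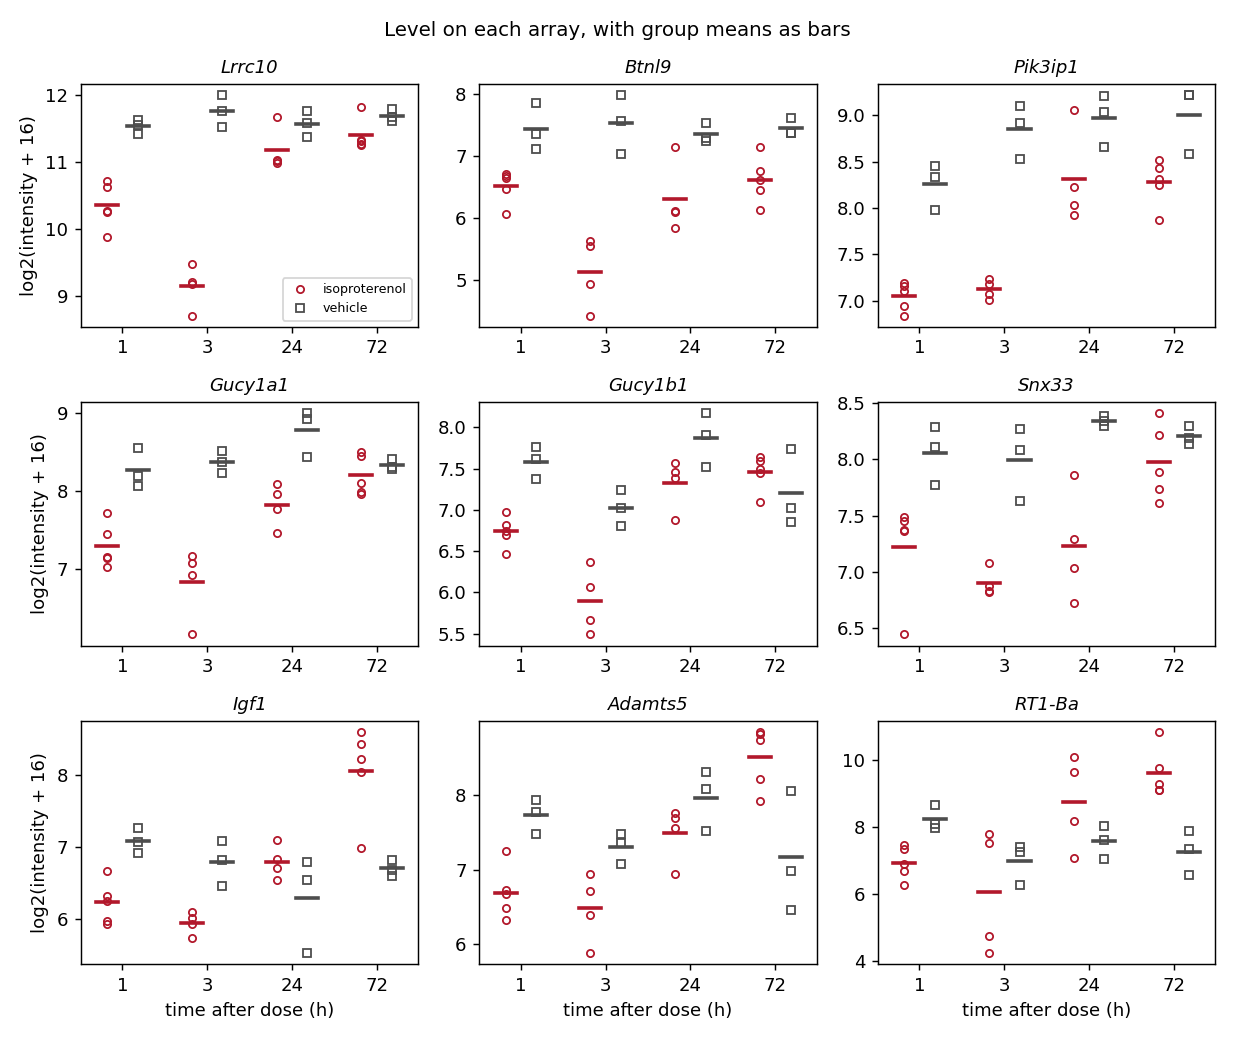
Level on each array, as normalized log2(intensity + 16), of 9 members at 1, 3, 24 and 72 h. Red circles are isoproterenol hearts, grey squares to their right vehicle hearts, and bars group means; Lrrc10 is lowest at 3 h, Snx33 and Gucy1a1 are still lower at 24 h, and Igf1, Adamts5 and RT1-Ba lie above vehicle at 72 h.

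Adamts5, a protease that cleaves aggrecan and versican in the matrix, read 6.67, 6.72, 6.33, 6.49 and 7.25 in isoproterenol hearts at 1 h, against 7.77, 7.47 and 7.93 in vehicle hearts. The 3 h readings were 6.39, 6.94, 6.71 and 5.88 in isoproterenol hearts, against 7.48, 7.08 and 7.35 in vehicle hearts. The early differences were -1.03 and -0.82, without overlap. At 24 h it did not pass (-0.47 ± 0.30, limma adjusted p = 0.340). At 72 h it read 8.21, 8.81, 8.84, 7.92 and 8.73 in isoproterenol hearts, against 6.98, 8.05 and 6.46 in vehicle hearts.

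Vehicle replicate 2 alone reached into the isoproterenol range, and the rise of 1.34 ± 0.28 in Adamts5 passed (limma adjusted p = 0.00129), also in each fit that left out 1 array. Its effect at 72 h exceeded that at 24 h by 1.82 ± 0.41 (interaction adjusted p = 0.0152), a call lost without vehicle replicate 2 of 24 h (0.0632) or vehicle replicates 1 (0.0603) or 3 (0.0902) of 72 h. A second Adamts5 probe set, low at 1 and 3 h (-0.75 and -1.60), did not pass at 72 h (0.20, adjusted p = 0.570), so the 2 probe sets disagree about the late rise.

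Of 10 fibroblast markers, 7 were higher and 0 lower at 72 h, where 13.2% of all genes tested were higher, and their median change was 1.08. Their summed intensity at 72 h was 32826 to 59111 in isoproterenol hearts and 21006 to 30023 in vehicle hearts, and at 24 h 18066 to 26608 and 21520 to 28303. Its part in the late rise of either gene was not tested.

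Of the 5 immune genes, Gimap4 was lower at 24 and 72 h, RT1-Ba and RT1-T24-3 were higher at 72 h, and Gimap7 and Slfn5 passed at neither time. RT1-Ba encodes a class II histocompatibility alpha chain, which presents peptides on macrophages and other immune cells. It read 7.35, 6.69, 6.90, 6.26 and 7.45 in isoproterenol hearts at 1 h, against 8.67, 8.08 and 7.97 in vehicle hearts. At 3 h it was scattered, with 4.23, 7.79, 7.52 and 4.75 in isoproterenol hearts, against 7.26, 7.41 and 6.27 in vehicle hearts, so the groups overlapped there and isoproterenol replicates 1 and 4 were far below the rest (difference -0.91). At 24 h it read 8.19, 10.10, 7.09 and 9.64 in isoproterenol hearts, against 8.03, 7.06 and 7.62 in vehicle hearts, and did not pass (1.19 ± 0.64, limma adjusted p = 0.254). The 72 h readings were 9.30, 9.12, 9.11, 9.76 and 10.84 in isoproterenol hearts, against 7.35, 6.57 and 7.87 in vehicle hearts.

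The 72 h rise of RT1-Ba was 2.36 ± 0.62 (limma adjusted p = 0.00721), with no overlap, and it held in each fit that left out 1 array. A second bright RT1-Ba probe set rose by 2.03 at 72 h (adjusted p = 8.7e-05), but its differences at 1 and 3 h were -0.15 and -0.24, far smaller than those of the member probe set. RT1-T24-3, a class I gene, had differences of -1.21 at 1 h and -1.49 at 3 h, and read 8.58, 9.49, 8.94, 8.90 and 9.81 in isoproterenol hearts at 72 h, against 7.28, 7.05 and 8.43 in vehicle hearts. That rise of 1.56 ± 0.35 passed (adjusted p = 0.00206), after -0.42 ± 0.36 at 24 h (adjusted p = 0.527). The difference between those times was 1.97 ± 0.50 (interaction adjusted p = 0.0321), a call lost without isoproterenol replicate 2 or vehicle replicates 1 or 3 of 24 h, or isoproterenol replicates 2 or 5 or vehicle replicates 1 or 2 of 72 h (0.0592 to 0.117). RT1 genes are a family of close copies, so their probe sets may read more than 1 of them.

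Of 12 macrophage and monocyte markers, 6 were higher and 0 lower at 24 h, and 10 higher and 0 lower at 72 h, where 10.0% and 13.2% of all genes tested were higher. Their summed intensity was 3684 to 8468 in isoproterenol hearts and 1763 to 2750 in vehicle hearts at 24 h, and 3180 to 11020 and 1490 to 1961 at 72 h. Its part in the late levels of RT1-Ba, RT1-T24-3 and Cxcr4 was not tested.

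Gimap4, a GTPase of lymphocyte survival, remained below vehicle. It read 7.97, 7.73, 7.83 and 7.78 in isoproterenol hearts at 24 h, against 8.74, 8.30 and 8.30 in vehicle hearts. At 72 h it read 8.46, 8.02, 7.72, 7.94 and 7.95 in isoproterenol hearts, against 8.94, 8.39 and 8.62 in vehicle hearts. Differences were -0.62 ± 0.18 at 24 h (limma adjusted p = 0.0204) and -0.63 ± 0.17 at 72 h (adjusted p = 0.0103), after -0.88 at 1 h and -0.90 at 3 h. The 24 h call was lost without isoproterenol replicates 2 or 4 or vehicle replicate 1 of 24 h (0.0518 to 0.143), and the 72 h call without vehicle replicate 1 of 72 h (0.110).

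Its relative Gimap7, 1 annotated protein-coding gene away on chromosome 4, had -0.91 and -0.93 at 1 and 3 h and did not pass at 24 h (-0.20 ± 0.21, limma adjusted p = 0.613) or 72 h (-0.24 ± 0.20, adjusted p = 0.473). Slfn5, of the schlafen family of interferon-induced genes, did not pass either (-0.40 and 0.21, adjusted p = 0.321 and 0.590). Of 6 lymphocyte and mast cell markers measured, 0 passed in either direction at any of the 4 times.

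Of the 10 transcription regulators, 2 zinc finger genes were lower at 24 h and 0 were called at 72 h. Zfp46 read 8.49, 8.10, 8.55 and 8.46 in isoproterenol hearts at 24 h, against 9.19, 9.14 and 8.96 in vehicle hearts. The groups did not overlap (-0.70 ± 0.16, limma adjusted p = 0.00350), and the call held in each fit that left out 1 array. It was lost with arrays centred on their medians (adjusted p = 0.0969) and without normalization (0.92). Zfp715 was lower by -0.82 ± 0.22 at 24 h (adjusted p = 0.0134), a call lost without isoproterenol replicate 2 (0.0684) or vehicle replicates 2 (0.0566) or 3 (0.0567) of 24 h.

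Dbp, an output factor of the circadian clock, read 6.74, 6.08, 7.01, 6.89 and 6.35 in isoproterenol hearts at 1 h, against 7.32, 7.90 and 8.41 in vehicle hearts. At 3 h it read 6.48, 5.24, 5.46 and 6.08 in isoproterenol hearts, against 7.76, 7.33 and 7.47 in vehicle hearts. Both times were without overlap (-1.27 and -1.70). Its vehicle mean was itself different between times, at 7.88 ± 0.55, 7.52 ± 0.22, 9.21 ± 0.30 and 8.62 ± 0.87 at 1, 3, 24 and 72 h (SD, n = 3 each), and the sources used here do not state the hour of sampling. It did not pass at 24 h (-0.30 ± 0.37, limma adjusted p = 0.679) or 72 h (-0.44 ± 0.35, adjusted p = 0.433).

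Meox2, a homeobox gene of blood vessel cells, had -1.16 and -1.10 at 1 and 3 h, and every isoproterenol heart was below every vehicle heart at all 4 times. The later differences did not pass (-0.46 ± 0.17 at 24 h and -0.41 ± 0.17 at 72 h, limma adjusted p = 0.0852 and 0.0882). The others were the Wnt effector gene Tcf7, the helix-loop-helix gene Tcf4, Sox4, the corepressor gene Runx1t1, Zfp503 and Zbtb5. Their later differences ranged from -0.41 in Sox4 to -0.14 in Tcf4 at 24 h, and from -0.35 in Tcf4 to 0.42 in Sox4 at 72 h, none past the threshold.

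Among metabolic and transport genes only Mid1ip1 was called. It encodes a protein that promotes polymerisation of acetyl-CoA carboxylase in fatty acid synthesis. It read 8.35, 8.41, 8.26, 9.04 and 8.37 in isoproterenol hearts at 1 h, against 9.97, 9.70 and 10.07 in vehicle hearts, and at 24 h it was back among vehicle values (0.13 ± 0.18, limma adjusted p = 0.719). The 72 h readings were 9.93, 9.63, 9.62, 9.71 and 9.83 in isoproterenol hearts, all below the 10.14, 10.08 and 10.65 of vehicle hearts. That difference of -0.55 ± 0.17 passed (adjusted p = 0.0250), but not without isoproterenol replicates 2 or 3 or vehicle replicate 3 of 72 h (0.0548 to 0.240).

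Ctns, the lysosomal cystine transporter, had -0.88 at 1 h, where groups overlapped, and -1.92 at 3 h, where they did not, and did not pass at 72 h (0.85 ± 0.38, limma adjusted p = 0.120). Adh1c, an alcohol dehydrogenase, was variable, with 5.64, 7.16, 6.12 and 6.77 in isoproterenol hearts at 24 h and 8.15, 8.44 and 5.67 in vehicle hearts, and did not pass at either later time despite differences near -1.0 ± 0.59 and -1.05 ± 0.57 (adjusted p = 0.308 and 0.220). Akr1c14, a hydroxysteroid dehydrogenase, had 3 member probe sets with later differences of -0.49 to 0.08, none past the threshold. The lipase inhibitor gene G0s2, the cytochrome P450 gene Cyp2u1 and Mettl7a did not pass (-0.36 to 0.41 at 24 h, -0.15 to 0.51 at 72 h). Akr1c and alcohol dehydrogenase genes have close copies whose messages the probes may share.

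Nxpe1, whose role in the heart is not known here, had the largest difference at 3 h. It read 6.31, 6.45, 6.65, 6.56 and 6.22 in isoproterenol hearts at 1 h, against 7.81, 8.06 and 7.91 in vehicle hearts. By 3 h the readings were 5.22, 4.44, 5.84 and 5.61 in isoproterenol hearts, against 8.09, 7.65 and 8.35 in vehicle hearts. The 3 h isoproterenol mean, 5.27, was below the dim limit of 5.29. The differences were -1.49 and -2.76, and at 24 and 72 h they were -0.39 ± 0.28 and -0.53 ± 0.27 (limma adjusted p = 0.435 and 0.194). The ribosomal protein gene Rpl37a, the histone gene Hist2h2be, the centrosomal gene Ccdc61 and Lzic were called at neither later time (-0.35 to 0.33 at 24 h, -0.61 to 0.33 at 72 h).

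Of the 12 unnamed members, 2 were lower at 24 h, and 2 lower and 1 higher at 72 h. One was lower at both times (-0.94 and -0.61, limma adjusted p = 0.0029 and 0.0305), a different one was lower at 72 h (-1.29, adjusted p = 0.0102) and another was higher at 72 h (0.72, adjusted p = 0.0367). The unnamed member with a called change between 24 and 72 h read 7.0, 7.02, 6.85, 6.84 and 6.85 in isoproterenol hearts at 72 h, all above the 6.53, 6.55 and 6.60 of vehicle hearts (0.35 ± 0.18, limma adjusted p = 0.188), after a lower level at 24 h (-0.62 ± 0.19, adjusted p = 0.0274). The largest 1 h difference of all members was in an unnamed probe set (-2.84), whose arrays were scattered at all later times, from 6.30 to 10.10 in isoproterenol hearts at 72 h and from 7.12 to 9.98 in vehicle hearts.

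Other probe sets of the same genes gave a reading the rule did not use directly. There were 28 for 16 of the member genes, of which 15 were bright in vehicle hearts. All 15 were below 0 at both 1 and 3 h, as were 41.1% of all bright probe sets, with median differences of -0.46 and -0.75. They share the RNA of the arrays that chose the members, so no test is given. Of the 13 dim ones, 7 were below 0 at both times.

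Promoters of the members were searched for short motifs on both strands in the 250 bases before the start, in 45 of 49 member genes that matched the RefSeq table. CCAAT was present in 51.1% of member promoters and in 34.3% of all 27457, GGGCGG in 44.4% and 32.4%, and TATAAA in 13.3% and 13.1%. The full cyclic AMP response element TGACGTCA was present in 2.2% and 1.7%, its short form TGACG in 11.1% and 19%, CACGTG in 2.2% and 5.8%, GATAAG in 4.4% and 6.1%, and AGGTCA in 13.3% and 13.7%. TGACGTCA holds TGACG, so their matches overlap. Median GC content was 54.8% in members and 52.0% in all. The 27457 promoters were not limited to genes on the array or bright in vehicle hearts, as the members were, so the 2 sets are unlike. The part of that in these shares was not tested. These matches describe the letters of the windows only.

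Chosen gene lists, which do not hold every gene of a class, were counted over the 12451 genes tested. Of these genes 1.04% were lower and 2.37% higher at 1 h, and 6.33% and 6.95% at 3 h. At 24 h the shares were 7.16% and 10.0%, and at 72 h 8.82% and 13.2%. The list of 110 transcription regulators holds 4 of the 10 member regulators (Dbp, Meox2, Sox4 and Tcf4). It lacks both zinc finger genes called at 24 h. Of the 110, 9 were lower and 7 higher at 1 h, and 22 and 17 at 3 h. At 24 h 14 were lower and 5 higher, and at 72 h 17 and 12. The 14 lower at 24 h became 4 to 9 without any 1 of vehicle replicates 1, 2 or 3 or isoproterenol replicates 1, 2 or 4 of 24 h, and the 17 at 72 h became 9 without vehicle replicate 1 and 27 without isoproterenol replicate 1 of 72 h. Of 30 angiogenic growth factor genes, which hold Igf1 and Plxnd1, 3 were lower and 1 higher at 1 h, 7 and 4 at 3 h, 7 and 1 at 24 h, and 8 and 4 at 72 h. The largest fall in it at 3 h was in Nrp1, a semaphorin and growth factor coreceptor (-1.78, limma adjusted p = 1.05e-08), and at 24 and 72 h in Apln, the apelin ligand (-1.91 and -1.47, adjusted p = 2.42e-05 and 0.000182). Of 47 G protein receptor and regulator genes, which hold Cxcr4, 1 was lower and 4 higher at 1 h, 7 and 8 at 3 h, 5 and 1 at 24 h, and 5 and 7 at 72 h. The rule chose the listed members by their 1 and 3 h values, so lower counts at those times depend partly on it. The 1 G protein gene lower at 1 h was Cxcr4. Members also had the largest fall of the angiogenic list at 1 h (Plxnd1) and of the regulators at 3 h (Dbp).

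Other lists hold no member, so the metabolic and transporter lists lack the 7 member genes described above as metabolic and transport genes. Of 19 Notch genes, 2 were lower and 0 higher at 1 h, 3 and 0 at 3 h, 2 and 1 at 24 h, and 0 and 3 at 72 h, with the largest fall at 3 h in the target gene Heyl (-1.68, limma adjusted p = 1.13e-05). Of 27 bone morphogenetic protein and transforming growth factor beta genes, 0 were lower and 2 higher at 1 h, 2 and 6 at 3 h, 0 and 1 at 24 h, and 0 and 4 at 72 h. Of 34 metabolic genes, 0 were lower and 1 higher at 1 h, 3 and 3 at 3 h, 12 and 0 at 24 h, and 21 and 0 at 72 h. Of 34 ion channel and transporter genes, 0 were lower and 0 higher at 1 h, 2 and 3 at 3 h, 10 and 0 at 24 h, and 13 and 0 at 72 h. These late falls depend on the scaling: without normalization 0 metabolic and 0 ion channel genes were lower at 72 h, and with arrays centred on their medians 11 and 6 were. They also rest on single arrays: metabolic genes lower at 72 h numbered 7 without vehicle replicate 1 and 13 without isoproterenol replicate 3 of 72 h, and at 24 h 7 without vehicle replicate 1 or isoproterenol replicate 2 of 24 h. Ion channel genes lower at 72 h numbered 5 without vehicle replicate 1 or isoproterenol replicate 3 and 6 without vehicle replicate 3 of 72 h, and at 24 h 5 without vehicle replicate 3 or isoproterenol replicate 2 of 24 h.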

How the data were processed

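RNA from 30 rat heart samples was kept in RNAlater, extracted with RNeasy, labelled with biotin as cRNA and hybridised to 1-colour Affymetrix rat expression arrays, per the labels' protocols. The authors deposited 1 linear intensity per probe set and array, with probe summarisation and array scaling not given in the sources used here. From the deposited intensity, log2(intensity + 16) was taken and quantile normalized over all 30 arrays without the 57 controls. Probe sets with a deposited intensity of 23 (the 40th percentile) or more in 3 or more arrays were tested: 24292 probe sets, or 12451 genes at 1 probe set a gene, the one with the highest mean.

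Tests used limma 3.58.1 in R 4.3.3 with 8 group means, 22 residual degrees of freedom, an intensity trend and Benjamini-Hochberg adjustment over all features. "Called" means an adjusted p under 0.05, ± beside a difference is the standard error, and array number limits precision. The members and gene lists were chosen with earlier results of these data known. Genes are named by rule: the 12 lowest means of the 1 and 3 h differences, members called at 24 or 72 h, the 4 nearest the threshold on each side, members in a list, and each list's largest called changes; other members are named to account for all. Replicate numbers did not pair the samples: across 12 pairs of groups the correlation of same-numbered deviations ran from -0.07 to 0.12, with 2 over 0.1. Alternatives were other scalings, pseudocounts, filters, variance models, thresholds and leaving out each array.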

Additional observations from a re-analysis of the deposited data

Results flagged for a closer look

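In 6 of 128 groups examined, over 32 probe sets, 1 array stood apart from the others of its group by Dixon's criterion, and chance flags about 1 in 20 groups. Lrrc10 read 11.67 in isoproterenol replicate 3 of 24 h, where the others read 10.98 to 11.03. It read 11.83 in isoproterenol replicate 1 of 72 h, where the others read 11.26 to 11.33. Tcf4 read 9.84 in isoproterenol replicate 3 of 3 h (others 9.56 to 9.59), and Cxcr4 read 7.23 in the same array (others 6.47 to 6.57). Mid1ip1 read 9.04 in isoproterenol replicate 4 of 1 h (others 8.26 to 8.41), and Snx33 read 6.44 in isoproterenol replicate 2 of 1 h (others 7.36 to 7.49).

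The isoproterenol effect differed between 72 and 24 h, by limma's interaction test, in RT1-T24-3 (1.97), Adamts5 (1.82) and 1 unnamed probe set (0.97).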

How the results depend on the processing

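Membership and later calls depended on the scaling. The rule found 241 probe sets without normalization, 102 with a pseudocount of 1, 18 with 64, 184 at a threshold of -0.6, 26 at -1, and 61 to 85 when each array was left out. Without normalization 0 members were lower and 3 higher at 24 h (median 0.26), 0 lower at 72 h (median 0.38) and 0 differed between the times, and Gimap4 (0.000187) and Rnf144a (0.064) turned positive at 24 h. All calls then split into 17 lower and 3078 higher at 24 h and 29 and 2351 at 72 h, against 1384 and 1781, and 2079 and 2275, as reported. With arrays centred on their medians 7 members were lower at 24 h (median -0.24) and 1 at 72 h (median 0.028), and all calls split into 780 and 1668, and 709 and 2353. Array weights gave 11 lower and 13 higher at 72 h, 11 higher and 1 lower between the times and 1 between vehicle groups. Fits of only the arrays compared gave 3 lower at 72 h and 0 between the times, where a pseudocount of 1 gave 1 and 64 gave 6. When each array was left out, 24 h gave 6 to 15 lower, 0 higher and medians of -0.37 to -0.29, and 72 h gave 1 to 9 lower, 5 to 9 higher and medians of -0.14 to -0.05. The difference between the times gave 0 to 6 higher and 0 lower, and the vehicle groups 0 to 1, the 1 without vehicle replicate 2 of 72 h. Of 21 named calls, 8 held without each array and 4 under all alternatives. With the replicate block, 13 members were lower and 0 higher at 24 h (median -0.35), and 8 lower and 7 higher at 72 h (median -0.12), 3 and 0 between the times, and 0 between vehicle groups. Of 2296 list counts, 1995 were within 1.5 times the reported one; without 1 array, lower genes at 24 and 72 h ranged from 4 to 7 and 3 to 9 in the angiogenic list, 3 to 6 and 2 to 6 in the G protein list and 0 to 3 and 0 to 3 in the Notch list, and higher transforming growth factor beta genes from 1 to 5 and 2 to 6. The cause of these changes was not tested.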
